A study of Mus musculus with 6 samples.

Results

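The proteasome is the protease complex that degrades proteins tagged with ubiquitin, and its genes were examined here as a set in mouse soleus, a slow-twitch muscle of the calf. Members were the array features that carried exactly 1 gene symbol beginning with Psm, a letter from a to g and a digit, with 1 feature per gene. The rule matched 50 genes among 30142 with a single symbol. Of these, 46 encode proteasome subunits, activators, an inhibitor or assembly factors. The other 4, Psmb5-ps, Psmb6-ps, Psmc3ip and Psme3ip1, share only the name. No values are given for the subunit Psmb5 or the activator Psme2, because their features carry several symbols.

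The arrays held total RNA from soleus of male mice aged 39 to 41 weeks, 1 array per mouse. The 3 Control mice were littermates labelled wild type. The 3 cKO mice carried the genotype DMP1 Cre Mbtps1 knockout, in which a Cre recombinase under Dmp1 regulatory sequence deletes Mbtps1. Dmp1 is a gene of bone-embedded osteocytes, so muscle fibres are not the cells in which this Cre is best known to act. Whether the Control mice carried a loxP allele or Cre was not given in the labels. Values are log2 signals as deposited, and the number of arrays limits their precision.

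The core particle of the proteasome is a barrel of alpha and beta rings that encloses the cutting sites. A regulatory cap binds ubiquitin chains, unfolds the substrate with a ring of ATPases and removes the chain in a part called the lid. Dedicated chaperones build core and cap, and interferon exchanges the cutting subunits for those of the immunoproteasome. In muscle the proteasome takes apart myofibrillar proteins during wasting, and the transcription factor NRF1, encoded by Nfe2l1, raises its genes when activity is short.

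Differences were cKO minus Control in limma, two-sided, with p-values adjusted by Benjamini-Hochberg over 33334 features, which are those brighter than the array's median feature on 3 or more arrays. Of the 46 proteasome genes, 43 passed this filter. Psma8, Psmb11 and Psmg3 did not. On the whole series, 0 features passed an adjusted p of 0.05, while the unadjusted p was under 0.05 for 1501. Mouse numbers in the labels fell in a low range (715, 716 and 733, which are Control 1, Control 2 and cKO 1) and a high range (776, 779 and 780, which are Control 3, cKO 2 and cKO 3), and what a range stands for was not stated. The array cKO 1 had the highest median signal, 4.37 against 4.13 or less, and was the highest of the 6 arrays for 46.4% of all features tested. The median difference over all features was 0.07 as deposited and -0.0038 after quantile normalization. Mbtps1 itself was at 7.39, 7.05 and 7.24 in Control and 7.77, 7.44 and 7.11 in cKO, in replicate order as throughout. The groups overlapped. This does not check the labels, as it is not known whether the feature reads the deleted exons, and whole muscle need not show a loss in other cells. All 8 skeletal muscle markers were measured, with a list mean of 17.9 to 18.1 on the 6 arrays. Acta1 and Myh2 of that list had equal values on each array, from 19.77 to 19.93, which is the table's highest value, so these features are at the top of the scale and their evenness says nothing of the RNA level. In bulk tissue, fewer cells of a type and less RNA per cell cannot be told apart.

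The promoters of 4 members are shown because the results turn on the first pair and the second pair holds motifs of regulators named below. Sequences are RefSeq windows of 300 bases on GRCm38.p6, from 250 bases before to 50 after a gene's start, in the direction of the gene. Psmd5 and Psmf1, the members with the smallest p for genotype, lie on the minus strand at chr2:34870913-34871212 and chr2:151741261-151741560. Psmb6 lies on the plus strand at chr11:70525107-70525406 and Psmd9 on the plus strand at chr5:123227940-123228239.
Psmd5: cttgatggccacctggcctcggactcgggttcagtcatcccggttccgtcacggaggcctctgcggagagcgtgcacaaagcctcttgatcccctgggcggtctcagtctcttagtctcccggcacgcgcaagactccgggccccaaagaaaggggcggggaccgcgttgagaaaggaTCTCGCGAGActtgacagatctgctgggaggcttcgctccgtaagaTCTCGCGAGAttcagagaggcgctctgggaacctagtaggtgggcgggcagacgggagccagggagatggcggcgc
Psmf1: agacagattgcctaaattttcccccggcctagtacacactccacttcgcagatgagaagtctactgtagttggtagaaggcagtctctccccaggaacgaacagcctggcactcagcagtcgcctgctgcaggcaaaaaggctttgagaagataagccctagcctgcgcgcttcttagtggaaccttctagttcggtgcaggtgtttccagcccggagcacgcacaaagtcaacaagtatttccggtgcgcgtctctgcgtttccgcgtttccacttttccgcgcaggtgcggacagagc
Psmb6: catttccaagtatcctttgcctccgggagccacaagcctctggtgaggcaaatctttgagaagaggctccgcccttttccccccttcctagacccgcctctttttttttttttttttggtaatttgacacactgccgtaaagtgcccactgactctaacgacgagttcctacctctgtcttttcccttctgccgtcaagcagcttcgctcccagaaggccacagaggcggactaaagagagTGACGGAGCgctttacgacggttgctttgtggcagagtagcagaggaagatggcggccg
Psmd9: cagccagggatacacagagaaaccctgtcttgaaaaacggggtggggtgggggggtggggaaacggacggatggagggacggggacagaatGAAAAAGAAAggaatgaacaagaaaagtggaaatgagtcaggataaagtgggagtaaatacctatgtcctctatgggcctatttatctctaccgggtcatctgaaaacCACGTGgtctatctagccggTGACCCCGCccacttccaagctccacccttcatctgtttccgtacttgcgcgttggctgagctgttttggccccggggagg
In Psmd5 the capitals mark the palindrome TCTCGCGAGA, in Psmb6 the core of an antioxidant response element, and in Psmd9, from left to right, an interferon-stimulated element, an E-box and another antioxidant core.

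Both strands were searched for 6 motifs in the 40 windows of the 38 proteasome genes that had one. The antioxidant core TGACNNNGC, the kind of site that NRF1 binds, lay in 5 of the 40 windows (12.5%), those of Psmb6, Psmc6, Psmd12, Psmd9 and Psme4, against 12.4% of all 32851 windows. The E-box CACGTG, which clock factors bind, lay in 4 windows (10%, against 7.15%), and the D-box TTATGNAA in 0 (against 3.38%). The interferon-stimulated element, a repeat of GAAA with a gap of 2 bases, lay in 5 windows (12.5%, against 3.44%), those of Psmb3, Psmd4, Psmd9, Psme1 and Psmg4. CCAAT lay in 14 windows (35.0%, against 37.4%). The palindrome, the longest that occurs more than once in the Psmd5 window, was searched only after that window had been read. It began there at positions -72 and -26 from the start, lay in 1 of the 40 windows, and in 0.466% of all windows. Psmf1 held none of the 6. No motif shares bases with another in the windows shown. A match describes letters only, and binding was not measured.

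Few proteasome genes were separated by genotype, at shares near those of all features. Psmd5, a chaperone of cap assembly, stood about 2.55-fold higher in cKO. Psmf1, which encodes an inhibitor of the core, and the lid subunits Psmd8 and Psmd11 stood 1.41-fold, 1.47-fold and 1.42-fold higher. Psmd10, the cap chaperone also known as gankyrin, was 1.24-fold lower. By limma 0 of the 43 genes passed an adjusted p of 0.05, as did 0 of all features. The unadjusted p was under 0.05 in 3 (6.98%), all higher in cKO, where 4.5% of all features had one. After quantile normalization it was under 0.05 in 4, of which Psmd10 was lower. The share of all features under that setting was not computed. In 6 genes (14%) all cKO arrays lay above all Control arrays and in 1 (2.33%) all lay below, against 8.95% and 2.05% of all features tested. After quantile normalization these were 4 above and 2 below, where 9.97% of all features were separated in either direction. Over the 43 genes the median difference was 0.10 log2 units and 30 were higher, where 65.8% of all features were higher. After quantile normalization 23 were higher, where 49.1% of all features were, and the median was 0.02. Without cKO 1, 17 were higher and the median was -0.10. The matching share and median over all features were not computed, and cKO 1 was the highest array for 46.4% of them.

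**Figure D1:**
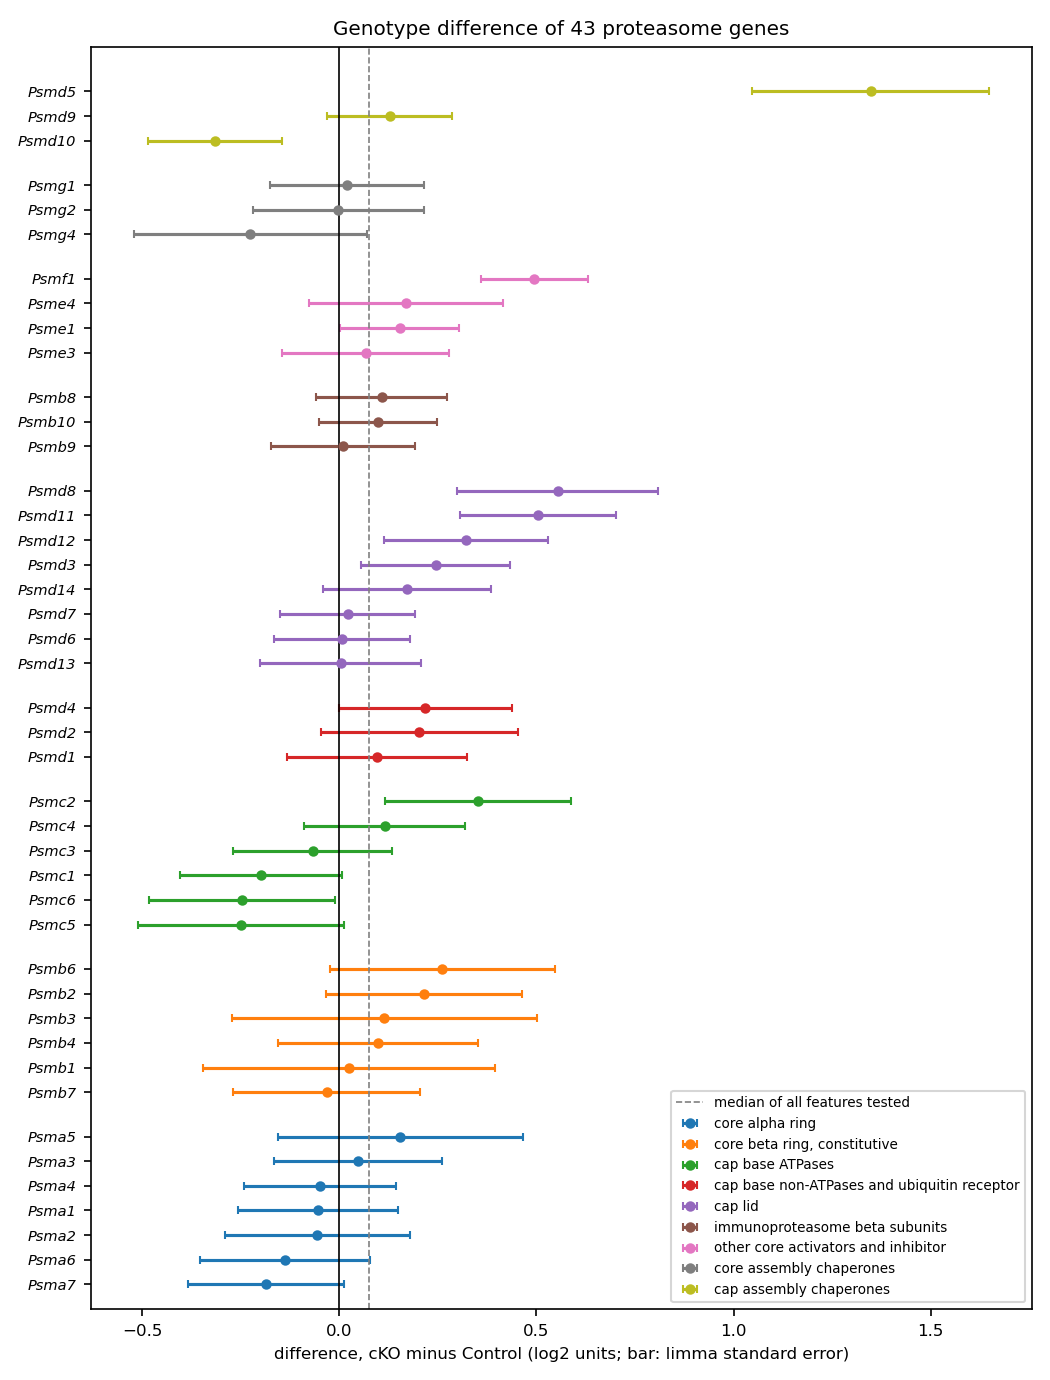
Difference between cKO and Control (log2 units, x axis) for the 43 proteasome genes tested, ordered by role, with bars for limma standard errors and a dashed line at the median of all features tested (0.07). Psmd5 at 1.35 stands apart, and the core particle genes lie between -0.19 and 0.26.

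Psmd5 belongs to the chaperones that hold the ATPase ring until it docks on the core, and excess of its protein is known to hinder cap assembly. On the log2 scale it was at 9.39, 9.77 and 9.80 in Control, and cKO arrays read 10.72, 10.68 and 11.60. The groups did not overlap, and cKO 3 was the highest array. The difference was 1.35 (SE 0.30, limma unadjusted p = 0.00324, adjusted p = 0.999). It was 1.14 and 1.34 within the low and high mouse numbers, 1.29 after quantile normalization, and 1.05 to 1.51 with each array left out. The RefSeq gene table lists 0 genes overlapping Psmd5.

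Cap assembly has a pair of further chaperones in this set. Psmd10 was at 8.18, 8.56 and 8.46 in Control and 8.11, 8.11 and 8.04 in cKO, so every cKO array lay below every Control array, by a small margin from Control 1. Its difference was -0.31 (SE 0.17, limma unadjusted p = 0.109), and -0.27 and -0.38 within the low and high numbers. After quantile normalization it was -0.44 (limma unadjusted p = 0.025, adjusted p = 0.99). The gene table lists Atg4a as overlapping Psmd10. Psmd9 was dim, at 4.59 to 4.81 in Control and 4.60 to 5.08 in cKO, and differed by 0.13 (SE 0.16). Within this class of 3, 2 were higher, where 65.8% of all features were. Its span of differences, from -0.31 to 1.35, was the widest of any class.

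Psmf1 encodes a protein that blocks the ends of the core and competes with activators. Its values were 5.30, 5.17 and 5.49 in Control and 5.81, 5.76 and 5.87 in cKO. All cKO arrays lay above all Control arrays, and the cKO arrays varied by 0.06 (SD, n = 3). The difference was 0.49 (SE 0.14, limma unadjusted p = 0.00891, adjusted p = 0.999), and 0.58 and 0.32 within the low and high numbers. The feature may not be free of another gene, since Tmem74b overlaps Psmf1 in the gene table. With Psmd5, it was the only named gene with an unadjusted p under 0.05 in each of the 15 alternatives run. These alternatives reuse the arrays by which the genes were named, so they give no independent support.

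**Figure D2:**
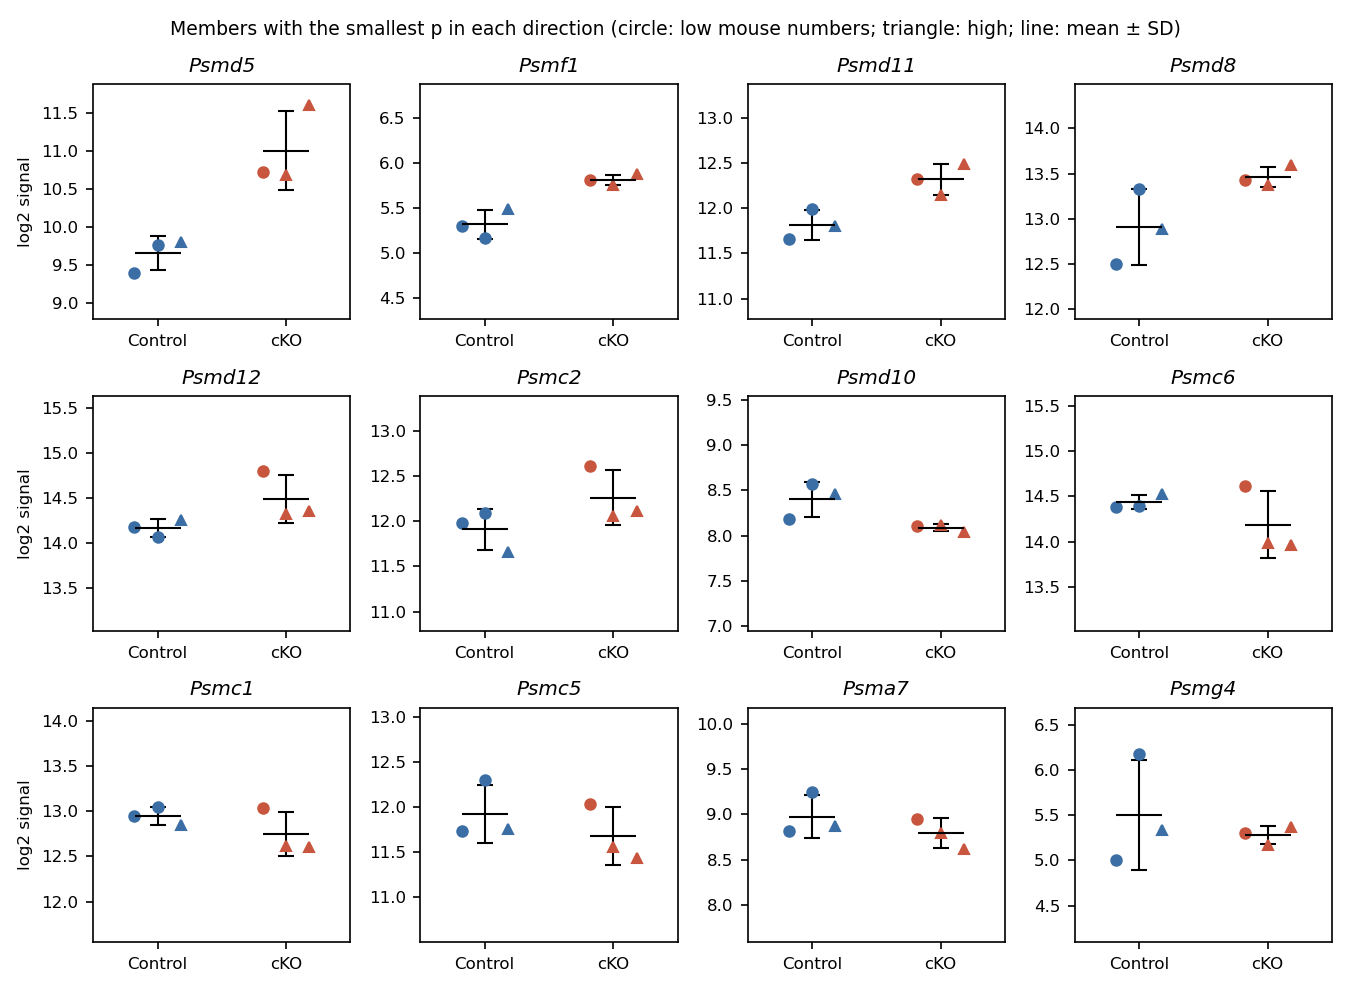
Log2 signal (y axis, separate for each gene) on the 3 Control and 3 cKO arrays for the 6 genes with the smallest p in each direction. Circles are low and triangles high mouse numbers, and bars are the mean and SD. Psmd5, Psmf1, Psmd11, Psmd8 and Psmd12 have every cKO point above every Control point, Psmd10 every cKO point below, and the other genes overlap.

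The lid carries the enzyme that removes ubiquitin chains, Psmd14, around a scaffold of related subunits. All 8 lid genes that matched the rule had a difference above 0 (6 after quantile normalization), where 65.8% (49.1%) of all features had one. Their median was 0.21 log2 units, against 0.07 over all features. After quantile normalization it was 0.12, against -0.0038. Without cKO 1 the lid median was 0.10. By limma 0 passed over all features and 1 had an unadjusted p under 0.05, where 4.5% of all features had one. Averaged over the 8 genes, Control arrays were at 11.5 ± 0.11 (SD, n = 3) and cKO arrays at 11.8 ± 0.11 (SD, n = 3), which is a difference of 0.23 (SE 0.09). Sem1, a small lid subunit whose symbol the rule does not match, lay on the other side. It was at 9.02, 9.79 and 8.76 in Control and 8.12, 8.84 and 8.83 in cKO, with overlap, and differed by -0.60 (SE 0.34, limma unadjusted p = 0.123).

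Psmd11, a lid scaffold subunit, was at 11.66, 11.99 and 11.80 in Control and 12.33, 12.15 and 12.49 in cKO. The groups did not overlap, and the difference was 0.50 (SE 0.20, limma unadjusted p = 0.0396), with 0.50 and 0.51 within the low and high numbers. The unadjusted limma p was 0.0586 with the number range as a block and 0.0746 after quantile normalization, and it was under 0.05 in 5 of 15 alternatives. Psmd8 was at 12.50, 13.34 and 12.89 in Control and 13.43, 13.37 and 13.59 in cKO. Here Control 2 reached nearly to the cKO arrays while Control 1 was far below them, and the difference was 0.55 (SE 0.25, limma unadjusted p = 0.0687). After quantile normalization it was 0.50 (limma unadjusted p = 0.048, adjusted p = 0.99), and without Control 1 it was 0.35.

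Psmd12 was at 14.17, 14.07 and 14.26 in Control and 14.79, 14.32 and 14.35 in cKO, which leaves a gap smaller than the spread among Control arrays. Its difference of 0.32 (SE 0.21) was 0.67 within the low range and 0.08 within the high range, and the groups overlapped after quantile normalization. The deubiquitinase Psmd14 was at 8.92, 8.97 and 8.99 in Control and 9.51, 8.89 and 8.99 in cKO. Of the cKO arrays, cKO 1 stood clear of Control and cKO 3 was level with its highest array, and the difference of 0.17 (SE 0.21) turned to -0.02 without it. Psmd3 differed by 0.24 (SE 0.19), and Psmd6, Psmd7 and Psmd13 by 0.0072, 0.02 and 0.0031, which is within their standard errors of 0.17 to 0.20.

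Base subunits of the cap were split. The ATPases Psmc1 to Psmc6 form the ring that unfolds substrates and threads them into the core. Of the 6, 2 were higher and 4 lower in cKO, the same counts after quantile normalization. Over all features 65.8% were higher (49.1% after quantile normalization). The class median was -0.13 log2 units, with 0 at an unadjusted p under 0.05. Psmc2 was at 11.98, 12.09 and 11.66 in Control and 12.61, 12.06 and 12.12 in cKO, where cKO 1 was highest and Control 3 lowest. Its difference was 0.35 (SE 0.24, limma unadjusted p = 0.182). With the number range as a block it was 0.50 (limma unadjusted p = 0.0373, adjusted p = 0.765), and within the low and high numbers it was 0.57 and 0.43. On the lower side stood Psmc6, at 14.38, 14.39 and 14.53 in Control and 14.62, 13.98 and 13.96 in cKO. Here cKO 1 opposed the other cKO arrays, and the difference was -0.25 (SE 0.24), but 0.23 and -0.55 within the low and high numbers.

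Psmc1 was at 12.95, 13.05 and 12.85 in Control and 13.03, 12.61 and 12.60 in cKO, and Psmc5 at 11.73, 12.29 and 11.75 in Control and 12.04, 11.56 and 11.44 in cKO. In both the groups overlapped through cKO 1 and Control 2 was the highest array, with differences of -0.20 (SE 0.20) and -0.25 (SE 0.26). A small nuclear RNA gene, Gm23645, overlaps Psmc5 in the gene table. Psmc3 and Psmc4 differed by -0.07 and 0.11. The base scaffold subunits Psmd1 and Psmd2 and the ubiquitin receptor Psmd4 had differences of 0.10, 0.20 and 0.22 (SE 0.22 to 0.25). Psmd4 was at 10.53, 10.44 and 10.42 in Control and 11.06, 10.51 and 10.48 in cKO. As in the other base scaffold genes, cKO 1 alone was high, and without it the Psmd4 difference was 0.03.

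Every core particle gene overlapped between the genotypes over the 6 arrays. The alpha ring, which gates the barrel, had 2 of 7 genes higher, a median difference of -0.05 log2 units and a range from -0.19 for Psma7 to 0.15 for Psma5. The beta ring, which holds the cutting sites, had 5 of 6 higher (4 after quantile normalization), a median of 0.11 and a range from -0.03 for Psmb7 to 0.26 for Psmb6. Over all features 65.8% were higher (49.1% after quantile normalization), with a median of 0.07. Of these 13 genes 0 had an unadjusted p under 0.05 in limma and 0 passed over all features. Averaged over both rings, Control arrays were at 11.2 ± 0.27 (SD, n = 3) and cKO arrays at 11.2 ± 0.30 (SD, n = 3), which is a difference of 0.03 (SE 0.23). The ring medians depended on the arrays and on the mouse numbers described below. The beta ring median was -0.13 without cKO 1, -0.06 without Control 3, 0.34 without Control 2 and 0.28 without cKO 3, and the alpha ring median lay between -0.18 without cKO 1 and 0.02 without cKO 2. With the number range as a block the beta ring median was 0.34 and the alpha ring median 0.05, where the median of all features was 0.11. Within the low and high ranges the beta ring medians were 0.31 and 0.41. Psmb6 differed there by 0.45 and 0.44 and Psmb2 by 0.32 and 0.45. The matching values over all features, within ranges or with an array left out, were not computed. The low range has cKO 1 as its only cKO array, which had the highest median signal. The high range has Control 3 as its only Control array. With the block 0 of these 6 genes had an unadjusted limma p under 0.05.

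Psmb6 and Psmb7 encode cutting subunits. The Psmb6 signal was 9.49, 10.05 and 9.24 in Control and 10.22, 9.58 and 9.76 in cKO, and that of Psmb7 was 14.44, 14.97 and 14.42 in Control and 14.82, 14.51 and 14.40 in cKO. In both genes Control 2 and cKO 1 were the highest arrays of their groups. The differences were 0.26 (SE 0.29) and -0.03 (SE 0.24). Psma7, the alpha gene with the smallest p, was at 8.82, 9.25 and 8.87 in Control and 8.95, 8.80 and 8.62 in cKO, and differed by -0.19 (SE 0.20).

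Core particle genes were lower at high mouse numbers. In a model with both terms, 37 of the 43 genes were lower at high numbers (36 after quantile normalization), where 65% of all features were lower (55.3% after quantile normalization). Both rings were lower in 13 of 13 genes, with median range differences of -0.31 log2 units for the alpha and -0.53 for the beta ring. The median range difference over all features was -0.10. In limma 5 of the 43 had an unadjusted p under 0.05 for range, where 13.5% of all features had one in either direction. All 5 were lower at high numbers, where 7.86% of all features had such a p and were lower. They were Psmb1, Psmb2, Psmb3, Psma5 and Psmd2, and 0 passed an adjusted p of 0.05.

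Psmb1 showed the widest such gap. Its signal was 14.20, 14.62 and 14.63 at low numbers (Control 1, Control 2 and cKO 1) and 13.45, 13.85 and 13.86 at high numbers (Control 3, cKO 2 and cKO 3). Every low-numbered array lay above every high-numbered one, and within each range a cKO array was highest. The range difference was -0.87 (SE 0.21, limma unadjusted p = 0.0063, adjusted p = 0.247), and the genotype term of the same model was 0.31. Psmb3, Psma5, Psmb2 and Psmd2 had range differences of -0.76, -0.65, -0.51 and -0.50.

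For Psmf1, Psmd11, Psmd8 and Psmd10, unlike Psmd5, the range differences were small. These genes were picked for a small p or separation by genotype, which favours genes that vary little by range. The range differences were 0.32 for Psmd5, 0.13 for Psmf1, -0.01 for Psmd11, 0.01 for Psmd8 and 0.02 for Psmd10. None was above its standard error except that of Psmd5, with an SE of 0.31. Their genotype terms in that model were 1.24, 0.45, 0.51, 0.55 and -0.32. Other genes named for a small p varied more by range, such as Psmc2, at -0.45 (SE 0.19), and Psmc5, at -0.40 (SE 0.24). Psmd12 and Psmg4, at -0.16 (SE 0.22) and -0.15 (SE 0.33), did not exceed their errors. What the number range stands for was not tested.

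**Figure D3:**
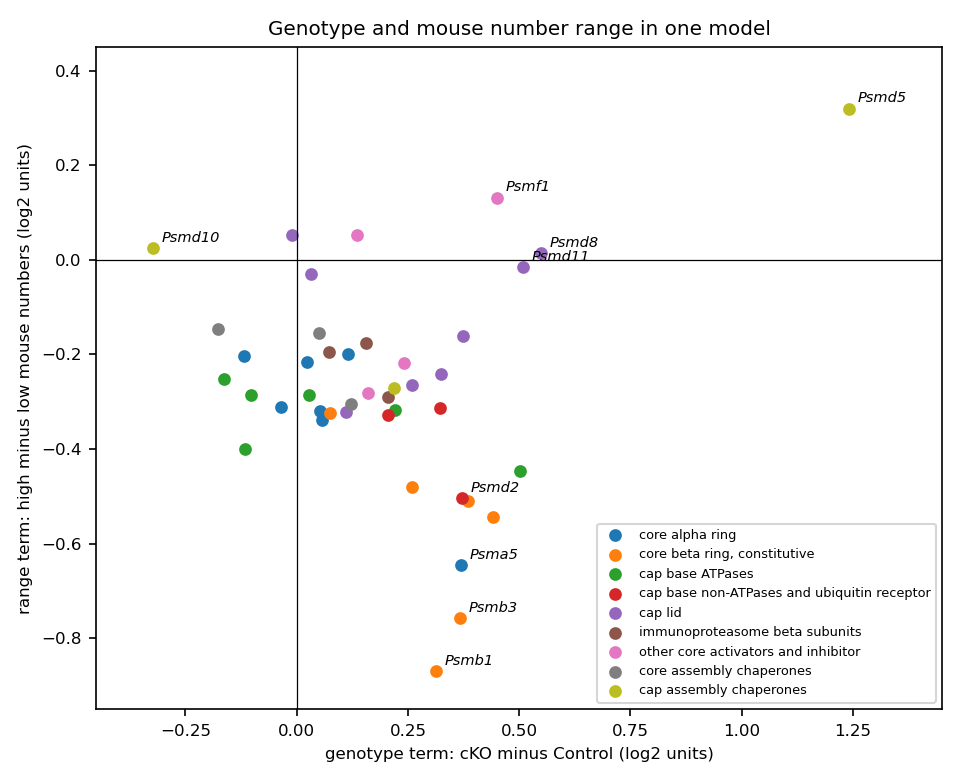
Genotype term (x axis) and mouse number range term (y axis), both in log2 units, from 1 model for each of the 43 proteasome genes, coloured by role. Psmd5, Psmf1, Psmd8 and Psmd11 lie to the right near or above 0 on the y axis, and the core beta ring lies below 0, down to -0.87 for Psmb1.

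Array by array, 25 of the 43 genes were highest on cKO 1 (46.4% of all features), 12 on Control 2 (13.2%), 5 on cKO 3 (9.35%), 1 on cKO 2 (6.52%) and 0 on Control 1 (7.79%) or Control 3 (16.7%). The lowest array was Control 3 in 14 genes (15.3%) and cKO 3 in 13 (19.7%). The median deviation of the 43 genes from their own means was 0.27 log2 units on cKO 1 and 0.11 on Control 2, against 0.19 and -0.06 over all features. After quantile normalization Control 1, Control 2 and cKO 1, the low-numbered arrays, were highest in 14, 12 and 11 genes, where 18.8%, 21.9% and 19.6% of all features were, and cKO 3 in 5 (15.7%). Control 3 was lowest in 21 (23.1%).

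**Figure D4:**
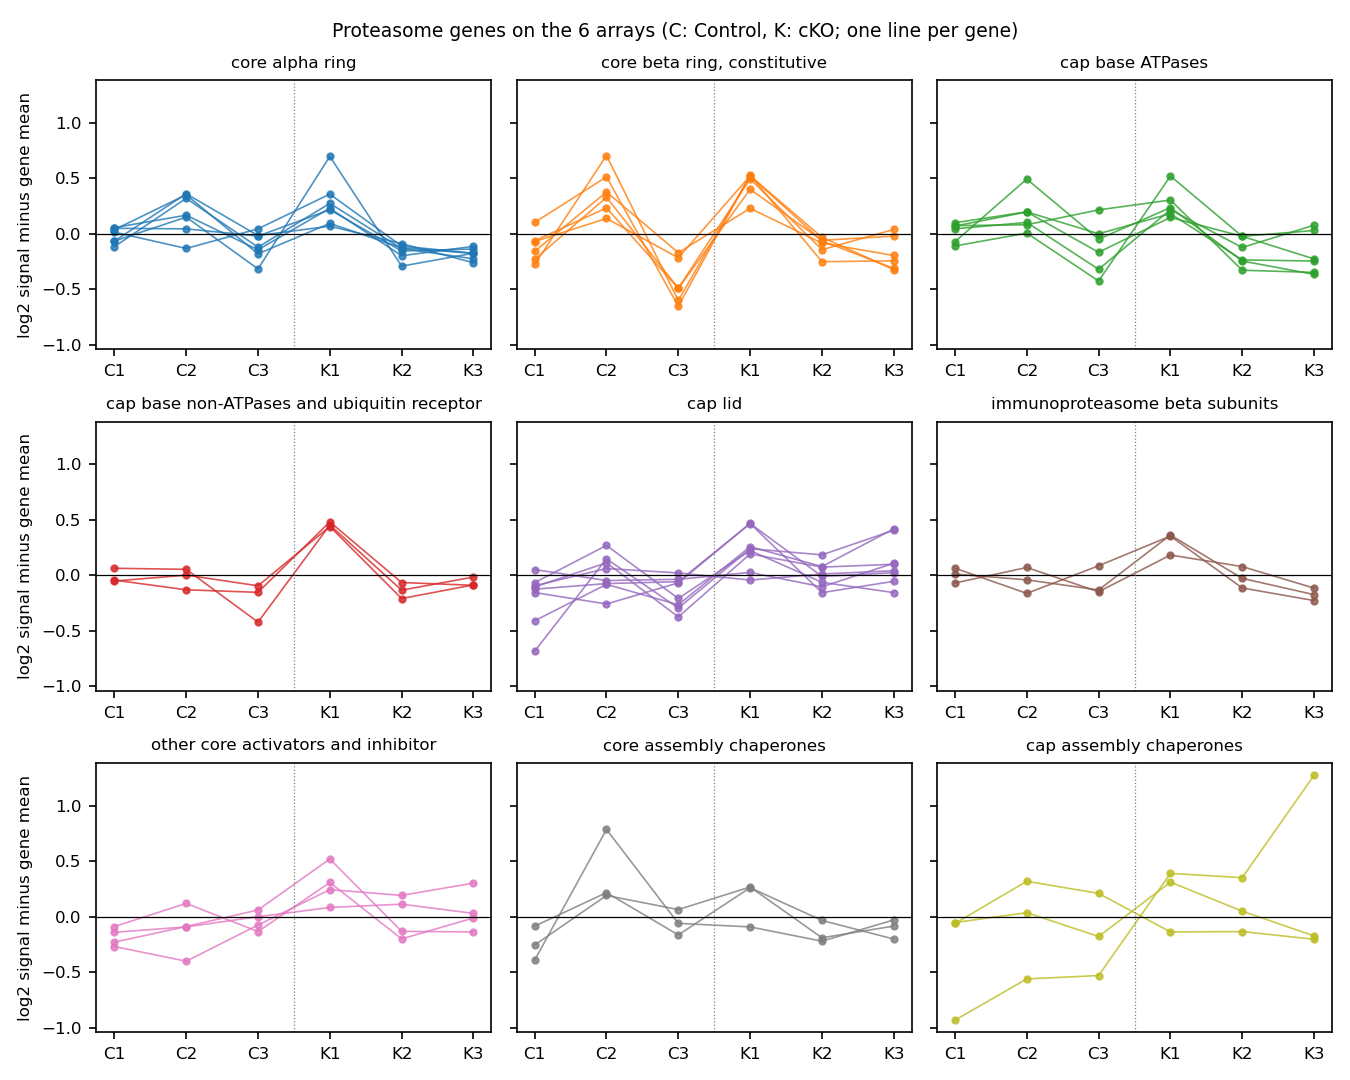
Log2 signal minus the gene's mean over 6 arrays (y axis) on Control 1 to 3 (C1 to C3) and cKO 1 to 3 (K1 to K3), with 1 line per gene in 1 panel per role. The lines join the values of a gene and imply no order. Core and base genes are high on K1, many of them also on C2, whereas Psmd5 lies far below its mean on the Control arrays and far above it on K3.

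Of the immunoproteasome subunits Psmb8 and Psmb9 were dim, and none differed by genotype beyond its error. Psmb8 was at 4.89, 4.84 and 4.75 in Control and 5.24, 4.85 and 4.71 in cKO, and Psmb10 at 6.54, 6.68 and 6.47 in Control and 6.80, 6.69 and 6.499 in cKO. Psmb9, at 4.15, 3.92 and 4.17 in Control and 4.44, 3.97 and 3.86 in cKO, exceeded the array median on only 3 arrays. In all 3 genes cKO 1 was the highest array and the other cKO arrays lay within or below the Control range or just above it. The differences were 0.11 (SE 0.17), 0.10 (SE 0.15) and 0.0083 (SE 0.18).

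The exchange of cutting subunits was followed as a difference within each array between an immune subunit and its partner. For Psmb9 minus Psmb6, Control arrays were at -5.51 ± 0.55 (SD, n = 3) and cKO arrays at -5.77 ± 0.15 (SD, n = 3), a difference of -0.25 (SE 0.33), which an exact permutation test did not separate (two-sided p = 0.5). For Psmb10 minus Psmb7, Control arrays were at -8.05 ± 0.21 (SD, n = 3) and cKO arrays at -7.91 ± 0.11 (SD, n = 3), a difference of 0.13 (SE 0.14, exact permutation p = 0.5), which became -0.05 after quantile normalization. Both adjusted p-values over the 2 pairs were 0.5, and 3 against 3 arrays cannot give a p below 0.1. These within-array values serve only to compare arrays and say nothing of which subunit is more abundant. The Psmb8 pair was not formed, as the feature of Psmb5 carries several symbols.

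Activators of the core open its gate without ubiquitin binding. Psme1, a subunit of the interferon-responsive activator ring, was at 8.29, 8.34 and 8.43 in Control and 8.51, 8.54 and 8.46 in cKO. The groups touched at a gap of a few hundredths and overlapped after quantile normalization, and the difference was 0.15 (SE 0.15, limma unadjusted p = 0.347). Psme3, the nuclear activator, was at 12.16, 12.37 and 12.11 in Control and 12.56, 12.05 and 12.24 in cKO, and differed by 0.07 (SE 0.21). Psme4, a single-chain activator linked to acetylated histones, was at 12.57, 12.71 and 12.86 in Control and 13.32, 12.67 and 12.66 in cKO, where cKO 1 alone was high. It differed by 0.17 (SE 0.25), with 0.68 and -0.20 within the low and high numbers.

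Chaperones of core assembly did not differ by genotype beyond their errors. Psmg1 and Psmg2 act as a pair on the alpha ring, as do Psmg3 and Psmg4. Psmg1 was at 7.64, 7.94 and 7.56 in Control and 7.98, 7.69 and 7.52 in cKO, and Psmg2 at 9.64, 10.09 and 9.96 in Control and 10.17, 9.71 and 9.81 in cKO. Their differences were 0.02 (SE 0.20) and -0.0024 (SE 0.22). Psmg4 was at 5.002, 6.18 and 5.33 in Control and 5.30, 5.17 and 5.36 in cKO, so its difference of -0.23 (SE 0.30) rested on Control 2 and was 0.11 without it. Psmg3, below the filter, was at 3.86 to 4.20 in Control and 3.81 to 4.12 in cKO.

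Partners and regulators of the proteasome were taken as lists of 48 genes, of which 37 had a single-symbol feature and were tested. By limma 0 of them passed over all features, and at an unadjusted p under 0.05 there were 2 higher and 1 lower, where 3.7% and 0.807% of all features were. The list of partners mixes shuttles, unfoldase cofactors, deubiquitinases, the chaperone Pomp and the lid subunit Sem1. Of its measured genes 13 of 18 were higher (8 after quantile normalization), where 65.8% (49.1%) of all features were. The list median was 0.09 log2 units, against 0.07 over all features, and -0.0040 after quantile normalization. Ubqln2, a shuttle that carries ubiquitinated proteins to the cap, was at 8.08, 8.45 and 8.34 in Control and 9.38, 8.92 and 8.91 in cKO. Nploc4, a cofactor of the unfoldase VCP, was at 12.89, 12.69 and 13.07 in Control and 13.43, 13.51 and 13.80 in cKO. In both genes all cKO arrays lay above all Control arrays, with differences of 0.78 (SE 0.21, limma unadjusted p = 0.00836) and 0.69 (SE 0.21, limma unadjusted p = 0.0131). After quantile normalization the unadjusted limma p was 0.00629 for Ubqln2 and 0.0655 for Nploc4. Pomp, the chaperone that completes the core, was at 11.83, 12.41 and 11.64 in Control and 12.19, 11.91 and 11.98 in cKO, and differed by 0.07 (SE 0.25). On the lower side, Txnl1, a thioredoxin-like protein bound to the cap, was at 12.06, 12.29 and 12.14 in Control and 11.38, 11.87 and 11.75 in cKO. Every cKO array lay below every Control array, and the difference was -0.50 (SE 0.21, limma unadjusted p = 0.0506, and 0.0475 after quantile normalization). Uchl5, a deubiquitinase of the cap, differed by -0.42 (SE 0.31). Sem1, Txnl1 and Uchl5 were chosen after their values were seen.

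Regulators of proteasome transcription gave 2 of 3 genes higher (1 after quantile normalization), where 65.8% (49.1%) of all features were. Among them Ngly1 differed by only 0.0031 (SE 0.17). Nfe2l1, which encodes NRF1, was at 15.16, 15.19 and 14.75 in Control and 14.82, 14.95 and 15.10 in cKO, and differed by -0.08 (SE 0.20). Nfe2l2, a related factor of the oxidative stress response, was at 8.68, 9.25 and 8.65 in Control and 9.17, 9.35 and 9.54 in cKO. Control 2 overlapped the cKO arrays, and the difference was 0.49 (SE 0.23, limma unadjusted p = 0.0731). Uba6, a ubiquitin-activating enzyme and the only gene of ubiquitin supply with a single-symbol feature, was at 7.25, 7.78 and 7.69 in Control and 7.52, 7.47 and 7.60 in cKO, and differed by -0.04 (SE 0.19).

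Muscle ubiquitin ligases lay on either side of 0, with 3 of 6 higher, where 65.8% of all features were. Fbxo32, the ligase adaptor atrogin-1 that marks wasting muscle, was at 14.92, 15.17 and 14.72 in Control and 14.43, 14.51 and 14.05 in cKO. Every cKO array lay below every Control array, and the difference was -0.61 (SE 0.22, limma unadjusted p = 0.0292, adjusted p = 0.999), with -0.62 and -0.44 within the low and high numbers. Trim63, the ligase MuRF-1, was at 12.48, 12.98 and 12.18 in Control and 12.31, 12.23 and 11.54 in cKO, with overlap between the groups and a difference of -0.52 (SE 0.31). Fbxo40, a muscle adaptor that targets an insulin receptor substrate, was at 13.58, 13.61 and 13.52 in Control and 14.31, 13.70 and 14.02 in cKO, without overlap, and differed by 0.44 (SE 0.21, limma unadjusted p = 0.0797).

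Interferon and antigen presentation genes, which use the peptides the immunoproteasome makes, were higher in 9 of 9 measured genes (8 after quantile normalization), where 65.8% (49.1%) of all features were, with a median of 0.20 log2 units and 0.12 after quantile normalization. The list mean was 7.53, 7.56 and 7.71 in Control and 8.01, 7.90 and 7.55 in cKO, so cKO 3 lay within the Control range. By limma 0 passed over all features and 0 had an unadjusted p under 0.05. Irf9 and Tap1, the members with the smallest p, differed by 0.19 (SE 0.13) and 0.20 (SE 0.14). Irf9, a factor of the interferon response, was at 4.90, 4.84 and 5.05 in Control and 5.27, 5.10 and 5.01 in cKO. Tap1, the peptide transporter beside Psmb9 in the genome, was at 4.96, 4.81 and 4.99 in Control and 5.27, 5.19 and 4.91 in cKO, so the groups overlapped.

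Of the markers of other cells, those of tendon differed between the groups in their list mean without overlap. By limma 0 markers passed an adjusted p of 0.05, and the shares over all features were 65.8% higher and 3.7% higher at an unadjusted p under 0.05. Tendon markers were higher in 8 of 8 measured genes, with 6 at an unadjusted p under 0.05 in limma and list means of 5.94 to 6.84 in Control and 7.25 to 7.80 in cKO. Macrophage markers were higher in 10 of 11, with overlapping list means of 5.88 to 6.41 in Control and 6.13 to 6.91 in cKO. Overlap was also seen for the other lists. Fibroblast markers were higher in 3 of 5 (9.67 to 10.7 in Control and 9.84 to 10.9 in cKO) and endothelial markers in 1 of 8 (8.62 to 9.61 in Control and 8.79 to 9.03 in cKO). Of 8 lymphocyte markers 1 was measured, Cd3d, at 4.30 to 4.56 in Control and 4.31 to 4.88 in cKO. Of 6 erythroid markers 1 was measured, Alas2, and it was lower in cKO (list values of 5.77 to 6.83 in Control and 5.54 to 6.07 in cKO). On a log2 scale no marker is at 0, and Mkx of the tendon list, Slc4a1 of the erythroid list and 6 lymphocyte markers were below the filter. The part of these cells in the differences of Psmd5, Psmf1 and the lid genes was not tested.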

How the data were processed

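Total RNA (100 ng per mouse, per the labels' protocols) was hybridised to Affymetrix arrays after labelling with a whole-transcript kit. The deposited table gives 1 value per feature and array, from 1.92 to 19.93, read here as log2 signals, a reading that rests on this range. For the log base, normalization and software, the entry is: not given in the sources used here. Of 72688 features 65956 had values. Groups came from sample titles. Symbols came from the platform annotation, and 48 of the 50 matched genes were found in RefSeq's GRCm38.p6 table by Entrez identifier.

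Tests used limma 3.58.1 (lmFit, eBayes with an intensity trend) in R 4.3.3, and tables and plots came from Python 3.11.15 (pandas 2.3.3, matplotlib 3.10.9). Adjusted p-values are limma's. The procedure was tested on simulated data with independent noise for each feature and no shift by array or number range. There 18% of 2-fold and 63% of 4-fold changes among 33334 features were recovered, with 5 false calls. These rates need not hold for the real arrays. Members, lists and tests were chosen with earlier results of these data known. Values per array were given for the 6 genes with the smallest p in each direction, the cutting subunits, activators, the inhibitor, Psmd4, Psmd11, Psmd14 and core chaperones, and the 2 pathway genes per list with the smallest p. Pomp, Nfe2l1 and Mbtps1 were also named by rule. Trim63, Psmb1 and the genes named for the number range were chosen after their values were seen. Alternatives were quantile normalization, median centring, other filters, no trend, array weights, a replicate block, a number range block, the latter together with quantile normalization, each array left out, another threshold and gene means. Replicates are separate mice.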

Additional observations from a re-analysis of the deposited data

How the results depend on the processing

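Under every alternative run, 0 of the proteasome genes passed an adjusted p of 0.05, in fits of 39 to 46 of them. At an adjusted p of 0.10, which was counted for the main fit only, 0 passed. The count at an unadjusted p under 0.05 was 3, and 5 with array weights. The count higher in cKO was 30 of 43 and the median difference 0.10 log2 units. With array weights these were 16 and -0.051, and without cKO 1 they were 17 and -0.10. Without each array in turn the counts at an unadjusted p under 0.05 ran from 2 to 4, the counts higher from 17 to 35 and the medians from -0.10 to 0.15. For array weights and the fits with an array left out, the matching shares and medians over all features were not computed. Without Control 3, 14 features of the whole table passed an adjusted p of 0.05, and 0 without any other array. The difference in Psmb10 minus Psmb7 turned to -0.0455 after quantile normalization. The causes were not tested. Psmd5 differed by 1.05 to 1.51 and Psmf1 by 0.35 to 0.58 over 15 alternatives, with adjusted p-values from 0.265 and 0.263 upward. The replicate block left 2 genes at an unadjusted p under 0.05. Replicate numbers do not pair the mice: deviations of same-numbered arrays correlated at 0.13, -0.20 and 0.21, and Control 2 correlated best with cKO 1 (0.33). Averaging a gene's features changed nothing, since each member had 1 feature. Dim genes such as Psmb8, Psmb9, Psmg3 and Psmd9 lay near the array medians, where small differences are hard to see.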

Other observations

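The genes that matched by name only were not counted with the proteasome. Psme3ip1, which encodes a nuclear protein that binds the activator Psme3, was at 8.21, 8.35 and 8.43 in Control and 8.76, 8.55 and 8.48 in cKO. All cKO arrays lay above all Control arrays by a margin smaller than the spread in either group, and the difference was 0.27 (SE 0.17, limma unadjusted p = 0.157). Psmc3ip, a recombination factor of meiosis, was dim at 4.75 to 5.10 on the 6 arrays and differed by -0.04 (SE 0.15). The pseudogene Psmb5-ps was at 8.04, 9.09 and 7.84 in Control and 8.76, 8.26 and 7.87 in cKO, with Control 2 and cKO 1 high as in the core beta ring, and its feature may also read Psmb5 transcripts, which was not tested. Psmb6-ps, below the filter, was at 3.40, 4.37 and 3.44 in Control and 4.47, 3.74 and 3.82 in cKO.

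The testis alpha subunit Psma8 and the thymus beta subunit Psmb11 lay below the array median on all 6 arrays, at 3.84 to 4.25 and 3.26 to 3.83. Both were highest on cKO 1.

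The genotype difference was also compared between mouse number ranges with an interaction term. In limma 0 of the 43 genes passed an adjusted p of 0.05. The unadjusted p was under 0.05 for 2, Psmb9 at 0.0392 and Psme4 at 0.0449, where 17.2% of all features had one. Psmb9 differed by 0.40 and -0.26 within the low and high numbers.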
